A study of Mus musculus with 12 samples.

Results

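The V-ATPase and lysosomal membrane genes described here were the genes whose symbol begins with Atp6v or Atp6ap, together with 11 further lysosomal genes: Lamp1, Lamp2, Laptm4a, Laptm4b, Mcoln1, Cln3, Clcn7, Tpp1, Ppt1, Lgmn and Tfeb. They were chosen by name and function, without a rule on their values, but with earlier results of these data known. They comprised 32 of the 12393 genes with a probe set that names a single gene. Of these, 28 passed the filter on dim values and were tested, and 4 V-ATPase isoforms (Atp6v0a4, Atp6v1b1, Atp6v1c2 and Atp6v1e2) lay below it. Atp6v0c, Atp6v0d2, Atp6v1g3, Atp6ap1l, Cd63 and Tmem55b (current symbol Pip4p1) were not analysed here.

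The study compared the cerebellum of Npc1-/- (null) mice with that of Npc1+/+ (wild-type) mice on the BALB/c background at postnatal day 21 (P21) and day 49 (P49). Each of the 4 groups held 3 individual animals, each on 1 Affymetrix array of biotin-labelled RNA, on standard chow and without treatment. Whole cerebellum was used, so each value averages all its cell types, and fewer cells of a type and less RNA per cell cannot be told apart. The allele was not named in the labels, and 11 animals were labelled female and 1, null P49 replicate 1, male.

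The vacuolar H+-ATPase (V-ATPase) is a rotary proton pump that acidifies endosomes and lysosomes. Its V1 sector in the cytosol hydrolyses ATP, and its V0 sector in the membrane carries protons through a ring of proteolipids. Neurons also use it to energise the loading of synaptic vesicles, so its subunits are abundant in brain. Npc1 encodes the late endosomal and lysosomal protein that exports cholesterol, and its loss causes Niemann-Pick type C disease, in which Purkinje cells degenerate. TFEB, encoded by Tfeb, is a transcription factor known to activate lysosomal genes through an element that contains the letters CACGTG.

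Promoter sequence was available from RefSeq (GRCm38.p6) for 26 of the 32 genes. Laptm4b, Atp6v0a2, Atp6v1c1, Atp6v1b2, Atp6v1g1 and Atp6v1h were not among them. The motif CACGTG, which reads the same on both strands, was searched in windows of 250 bases before to 50 bases after each annotated start. It was present in 9 of the 26 genes (34.6%): Atp6v0b, Atp6v0d1, Atp6v0e, Atp6v1a, Clcn7, Cln3, Lamp1, Lgmn and Mcoln1. Among all 27025 genes with such a window the share was 8.09%. The longer palindrome TCACGTGA, each copy of which contains CACGTG, was present in 6 of the 26 (Atp6v0d1, Atp6v0e, Atp6v1a, Clcn7, Cln3 and Mcoln1) and in 1.12% of all genes. A match of letters is a description of the sequence and not evidence of binding.

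The 150 bases before the start are shown for Lamp1, Mcoln1, Cln3 and Atp6v0b, which held 2 or more copies there, and for Lgmn and Tpp1, which were called higher at P49. All are printed 5′ to 3′ on the strand of the gene, with CACGTG in capitals. For Cln3 and Lgmn, which have more than 1 annotated start, the stretch before the downstream start is given, since the one before the upstream start held no copy. The stretches lie at chr8:13159011-13159160 (Lamp1, plus strand), chr8:3500369-3500518 (Mcoln1, plus), chr7:126583237-126583386 (Cln3, minus), chr4:117887330-117887479 (Atp6v0b, minus), chr12:102439093-102439242 (Lgmn, minus) and chr7:105752236-105752385 (Tpp1, minus).
Lamp1: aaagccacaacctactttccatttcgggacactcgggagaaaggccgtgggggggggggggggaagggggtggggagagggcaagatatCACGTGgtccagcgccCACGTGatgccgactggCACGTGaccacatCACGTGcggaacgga
Mcoln1: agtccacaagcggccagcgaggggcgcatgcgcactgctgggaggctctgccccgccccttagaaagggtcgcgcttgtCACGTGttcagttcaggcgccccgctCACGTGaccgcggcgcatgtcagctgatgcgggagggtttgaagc
Cln3: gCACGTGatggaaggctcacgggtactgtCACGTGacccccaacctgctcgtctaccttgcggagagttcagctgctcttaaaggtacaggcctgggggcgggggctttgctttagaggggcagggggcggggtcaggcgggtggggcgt
Atp6v0b: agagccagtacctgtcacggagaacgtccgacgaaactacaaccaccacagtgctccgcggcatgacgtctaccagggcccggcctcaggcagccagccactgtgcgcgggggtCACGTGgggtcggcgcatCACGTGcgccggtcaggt
Lgmn: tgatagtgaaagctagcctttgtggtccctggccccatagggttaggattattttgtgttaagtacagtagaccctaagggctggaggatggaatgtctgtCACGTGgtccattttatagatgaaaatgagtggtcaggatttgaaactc
Tpp1: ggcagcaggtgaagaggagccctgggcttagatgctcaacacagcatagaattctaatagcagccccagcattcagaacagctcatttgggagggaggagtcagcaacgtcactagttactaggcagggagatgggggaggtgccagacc
The stretch of Lamp1 held 4 copies, those of Mcoln1, Cln3 and Atp6v0b 2 each, that of Lgmn 1 and that of Tpp1 none. The 4 copies of Lamp1 began 61, 45, 28 and 15 bases before the start, and that of Lgmn began 49 bases before it.

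Values are log2 of the deposited intensity plus 16 after quantile normalization, and differences are given with limma's standard error (n = 3 animals per group). A gene was called when its limma adjusted p over 7835 genes was under 0.05. Npc1 on the null arrays ran from 8.25 to 10.53, below its range of 11.06 to 11.75 on the wild-type arrays, and its difference was not called at P21 (-1.95 ± 0.37, adjusted p = 0.101) or at P49 (-1.43 ± 0.37, 0.0591). Xist, transcribed from the inactive X of females, was 9.28, 13.01 and 13.36 on wild-type P21 replicate 2 and null P21 replicates 2 and 3, all labelled female, against 15.61 to 15.86 on the other arrays, the 1 labelled male included. Eif2s3y, a gene of the Y chromosome that lay below the filter, read 4.35 to 8.91 on the other arrays and 12.72, 9.25 and 12.67 on these 3. The reason was not tested. Leaving out these 3 arrays keeps only replicate 1 of null P21, so only differences are given for that fit. The median over the 28 tested members was then -0.05 at P21, against -0.01 with all arrays. At P49 it was 0.07 in both fits, and in the interaction it was 0.09 against 0.13. Null P21 replicate 2 also stood apart over all genes: it was the lowest of 12 arrays for 23.5% of them and the highest for 24.3%, where the other arrays had 3.88% to 10.4%.

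At P49 the soluble hydrolases Lgmn and Tpp1 were higher in null cerebellum. No V-ATPase subunit or lysosomal membrane protein among the tested members was called with 1 probe set per gene. The count was 2 of 28 higher and 0 lower, where 1.52% of all 7835 genes were called higher and 1.14% lower. At an unadjusted p under 0.05 there were 6 of 28 members, beside 11.3% of all genes. The difference had a median of 0.07 over the 28 and of -0.02 over all genes.

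**Figure D1:**
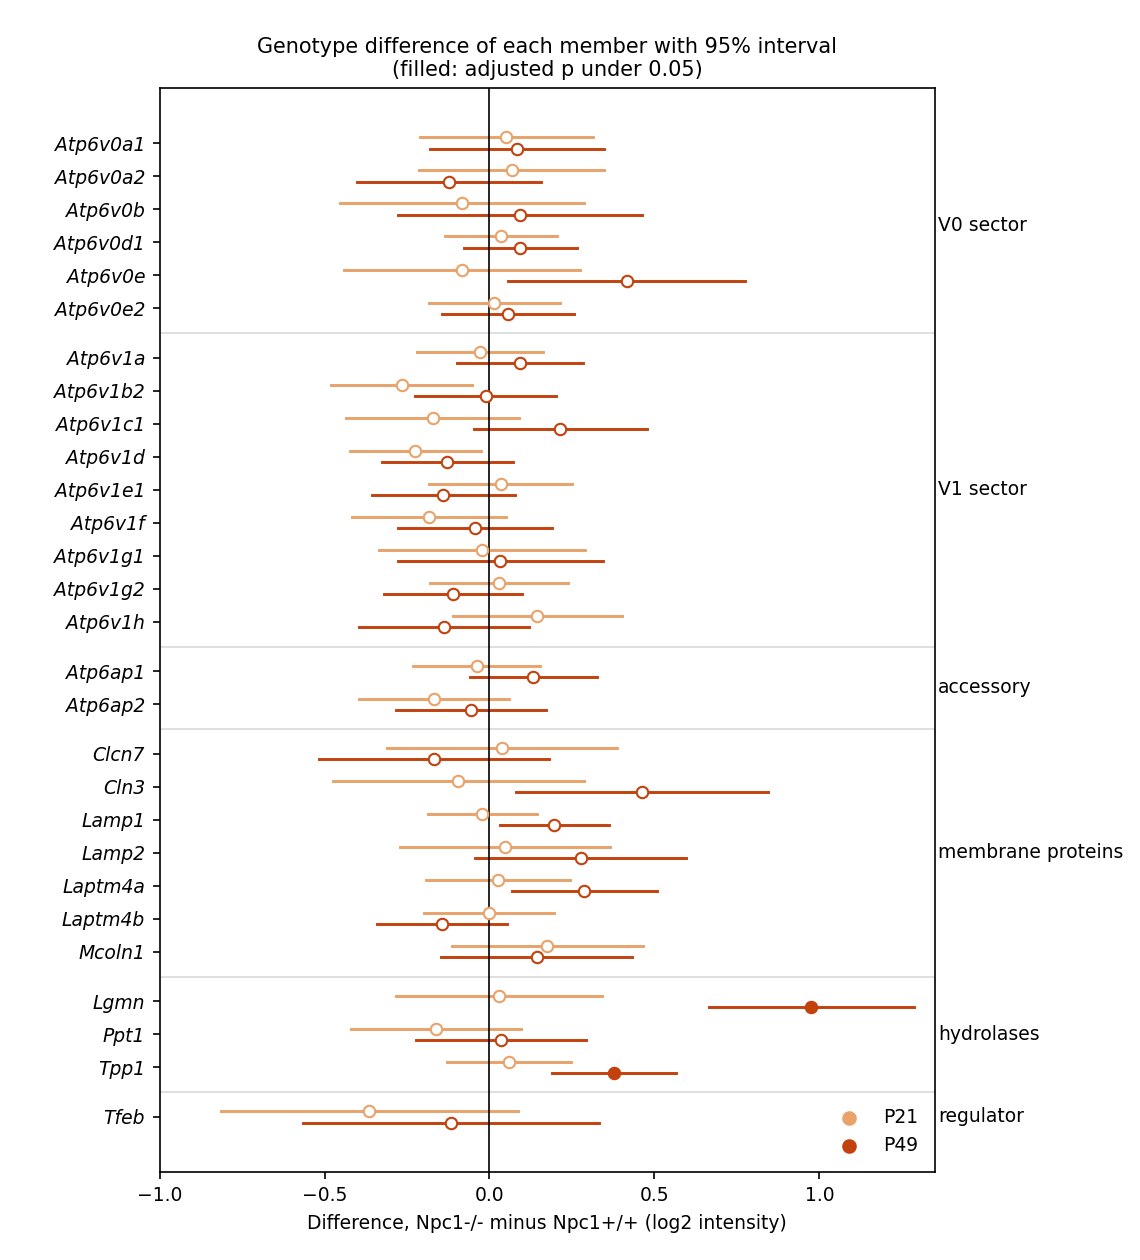
Difference between null and wild-type cerebellum (x axis, log2 intensity) for each of the 28 tested genes (y axis, grouped by role) at P21 and P49. Points are limma estimates, lines their 95% intervals and filled points calls at an adjusted p under 0.05, which are Lgmn and Tpp1 at P49. Of the V-ATPase subunits, Atp6v0e at P49 lies farthest from 0 (0.42, not called).

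Lgmn encodes legumain, an endopeptidase that cuts after asparagine and processes other lysosomal proteases. It stood at 12.97, 13.23 and 12.74 on the wild-type P49 arrays and at 13.81, 14.12 and 13.94 on the null P49 arrays. The null arrays were all higher and the groups did not overlap. The difference was 0.98 ± 0.14, or 1.97-fold (limma adjusted p = 0.00139, 95% interval 0.66 to 1.29), and Lgmn was called under each of the 24 alternative analyses (adjusted p from 0.000608 to 0.0153).

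Tpp1 encodes tripeptidyl peptidase 1, which trims tripeptides from protein ends and is lost in a childhood form of neuronal ceroid lipofuscinosis. Its values were 14.16, 14.20 and 14.17 on the wild-type P49 arrays and 14.41, 14.58 and 14.67 on the null P49 arrays, again without overlap. The difference of 0.38 ± 0.09, or 1.30-fold, was called (adjusted p = 0.0338). The call was lost in 11 of 24 alternatives, among them a common median (0.27, adjusted p = 0.307). It was also lost without wild-type P49 replicate 1, 2 or 3 (adjusted p = 0.132, 0.106 and 0.115), null P49 replicate 2 or 3 (0.174 and 0.227) or wild-type P21 replicate 2 (0.0556). A second probe set of Tpp1 gave 0.37 ± 0.12 (adjusted p = 0.187 over 13576 probe sets).

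Ppt1 encodes palmitoyl-protein thioesterase 1, which removes fatty acids from cysteines of lipidated proteins. It read 14.06, 14.33 and 14.14 on the wild-type P49 arrays and 14.14, 14.10 and 14.39 on the null ones. The groups overlapped and the difference was 0.04 ± 0.12 (adjusted p = 0.958).

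**Figure D2:**
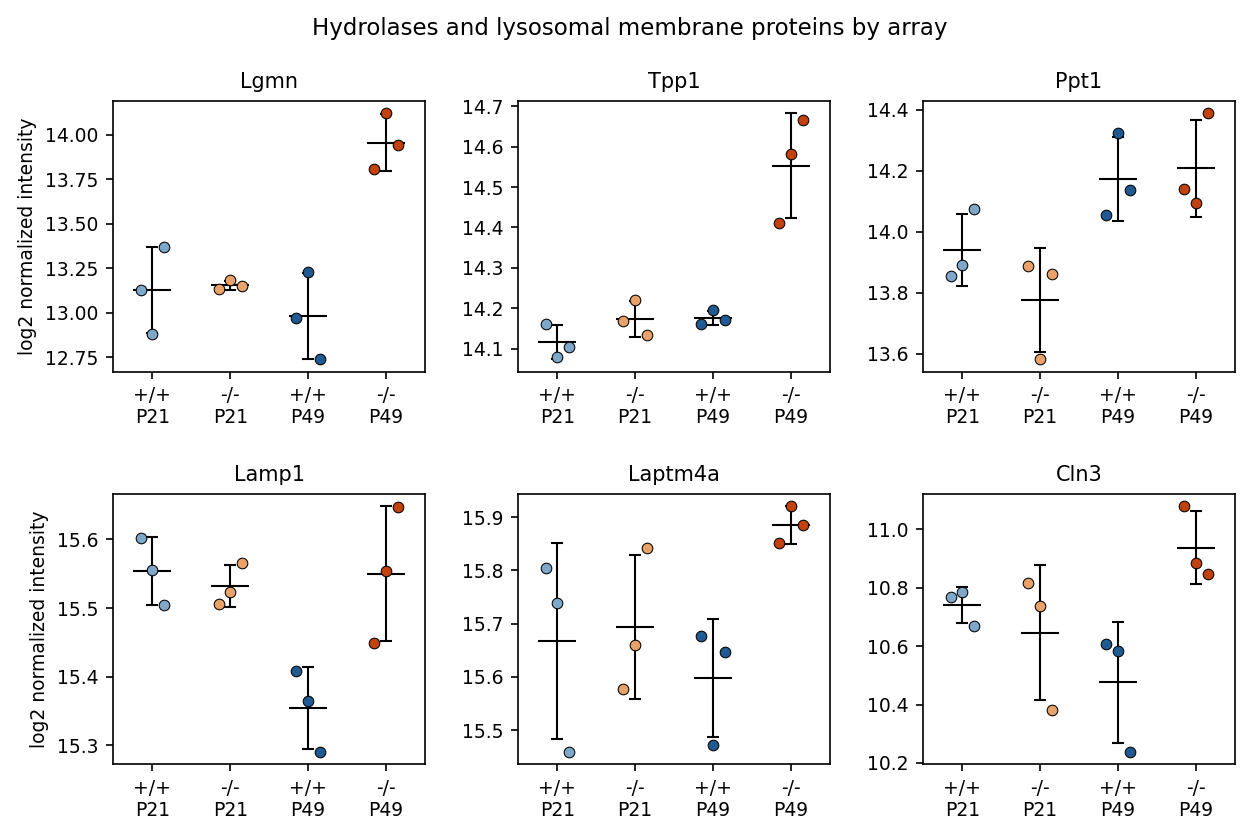
Values of 3 hydrolases (Lgmn, Tpp1 and Ppt1) and 3 membrane proteins (Lamp1, Laptm4a and Cln3) on each array (y axis, log2 normalized intensity, with its own range in each panel) by genotype and age (x axis). Points are animals, and bars the mean and SD of 3; the null P49 animals of Lgmn lie at 13.81 to 14.12, above all others.

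Lamp1 and Lamp2 encode the heavily glycosylated proteins that line the inner face of the lysosomal membrane. Lamp1 read 15.41, 15.36 and 15.29 on the wild-type P49 arrays and 15.45, 15.55 and 15.65 on the null P49 arrays. These groups did not overlap, but the difference of 0.20 ± 0.08 did not pass (adjusted p = 0.304). The probe set that stands for Lamp2, the one with the highest mean, read 14.01, 13.60 and 13.74 in wild type and 14.00, 14.03 and 14.15 in null at P49. Its groups overlapped, with a difference of 0.28 ± 0.15 (adjusted p = 0.553).

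The 4 probe sets of Lamp2 did not give the same difference at P49. Probe set 1416344_at read 11.99, 12.13 and 12.10 on the wild-type P49 arrays and 13.00, 13.11 and 12.93 on the null P49 arrays. Its groups were well separated, and the difference of 0.94 ± 0.16, or 1.92-fold, was called in the fit of 13576 probe sets (limma adjusted p = 0.0049), where 1.26% were called higher and 0.825% lower. It was called in each of the 23 alternatives run on probe sets. Probe set 1416343_a_at was 0.55 ± 0.15 higher without overlap (adjusted p = 0.0907), and 1428094_at 0.24 ± 0.13 higher, also without overlap (0.58). Only 1434503_s_at overlapped, at 0.28 ± 0.15 (adjusted p = 0.604). Lamp2 is known to be spliced into several forms, and which of them each probe set reads is not given in the sources used here. With the probe sets averaged, Lamp2 was called at 0.50 ± 0.11 (adjusted p = 0.0195).

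**Figure D3:**
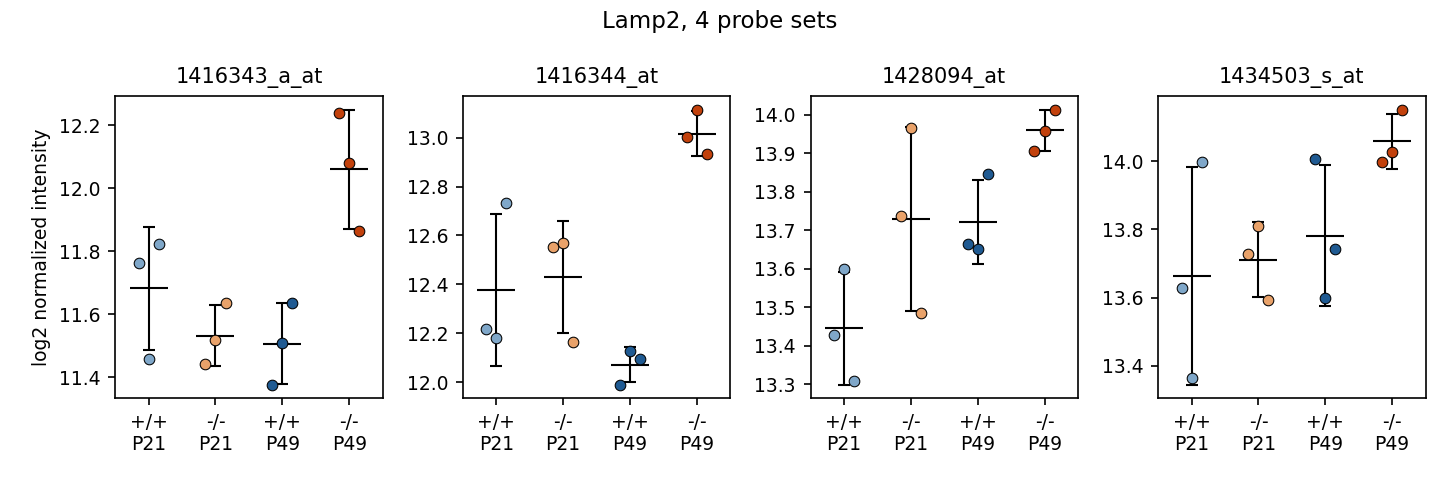
The 4 probe sets of Lamp2 (1 panel each) by genotype and age (x axis), with log2 normalized intensity on the y axis and a range of its own in each panel. Points are animals, and bars the mean and SD of 3; on 1416344_at the null P49 animals lie at 12.93 to 13.11 and the wild-type P49 animals at 11.99 to 12.13, whereas on 1434503_s_at they overlap.

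Among the other membrane proteins, Laptm4a (a small protein with several membrane spans, found in late endosomes and lysosomes) read 15.68, 15.47 and 15.65 in wild type and 15.85, 15.92 and 15.88 in null at P49. The groups did not overlap, and the difference was 0.29 ± 0.10 (adjusted p = 0.237); fitted on the P49 arrays alone it passed (0.0348). Cln3, mutated in juvenile neuronal ceroid lipofuscinosis, read 10.61, 10.58 and 10.24 in wild type and 11.08, 10.88 and 10.85 in null. Again the null arrays were all higher, by 0.46 ± 0.18 (adjusted p = 0.291), without a call. Mcoln1 (the calcium-permeable channel TRPML1) overlapped between the groups at 0.14 ± 0.13 (adjusted p = 0.81), as did Clcn7 (a chloride-proton exchanger) at -0.17 ± 0.16 (0.811). Laptm4b read 14.42, 14.35 and 14.39 in wild type and 14.29, 14.25 and 14.20 in null, a difference of -0.14 ± 0.09 (adjusted p = 0.663) whose groups did not overlap. Thus, with 1 probe set per gene, 3 of the 7 membrane proteins were separated upward and 1 downward, beside 11.2% and 12% of all genes. None was called in that fit of 12 arrays. Tfeb itself overlapped at P49, with a difference of -0.12 ± 0.21 (adjusted p = 0.914).

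The 17 tested V-ATPase subunits differed little by genotype at P49. No subunit was called, 1 had an unadjusted p under 0.05, 9 differences were positive and 8 negative, and their median was 0.03. With 1 probe set per gene, the 95% interval of 16 of the 17 lay within 0.5 log2 units of 0 (1.41-fold) on either side. The exception was Atp6v0e, whose interval reached 0.77. The split was 9 and 8 on the values as deposited and 8 and 9 at a common 75th percentile. At a common median, which moved the median of all genes by -0.07, it was 3 and 14, beside 2524 positive and 5309 negative among all genes, so no direction is given for the subunits as a group.

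In the V0 sector, Atp6v0e (the small e1 subunit) read 12.81, 12.92 and 13.13 on the wild-type P49 arrays and 13.35, 13.45 and 13.31 on the null P49 arrays. The groups did not overlap, and the difference of 0.42 ± 0.17 was not called (adjusted p = 0.323); fitted on the P49 arrays alone it passed (0.0397). Atp6v0e2, its paralog, overlapped at 0.06 ± 0.09 (adjusted p = 0.902). The membrane-spanning a subunits, which direct the pump to its compartments, gave 0.08 ± 0.12 for Atp6v0a1 and -0.12 ± 0.13 for Atp6v0a2 (adjusted p = 0.888 and 0.834). Atp6v0b, a proteolipid of the ring, differed by 0.09 ± 0.17 and Atp6v0d1, which joins the ring to the central stalk, by 0.09 ± 0.08 (adjusted p = 0.918 and 0.789). Of the 6 V0 subunits tested, 5 had positive differences on this scaling, beside 3598 of all 7835 genes.

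In the V1 sector, the catalytic subunit Atp6v1a read 15.48, 15.50 and 15.43 in wild type and 15.57, 15.61 and 15.51 in null at P49, a difference of 0.09 ± 0.09 (adjusted p = 0.811). The groups did not overlap, although the lowest null array was only just above the highest wild-type one. Atp6v1b2, the nucleotide-binding B subunit of brain, differed by -0.01 ± 0.10 (adjusted p = 0.986). Atp6v1c1, which holds the sectors together, read 14.98, 15.04 and 15.22 in wild type and 15.27, 15.34 and 15.27 in null, or 0.21 ± 0.12 (adjusted p = 0.591). Atp6v1d and Atp6v1f form the rotating stalk; Atp6v1d gave -0.13 ± 0.09 without overlap and Atp6v1f -0.04 ± 0.11 (adjusted p = 0.731 and 0.94). The outer stalks are built of E and G subunits, of which Atp6v1e1 gave -0.14 ± 0.10, Atp6v1g1 0.03 ± 0.14 and the neuronal Atp6v1g2 -0.11 ± 0.10 (adjusted p = 0.731, 0.968 and 0.801). Atp6v1h, which regulates ATP hydrolysis, gave -0.14 ± 0.12 (adjusted p = 0.801), so 3 of the 9 V1 subunits were positive, beside 3598 of all 7835 genes. The signs by sector were not counted on other scalings.

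The accessory subunits are membrane proteins that help the pump to assemble. Atp6ap1 read 15.07, 15.13 and 15.25 in wild type and 15.27, 15.26 and 15.32 in null at P49 (0.13 ± 0.09, adjusted p = 0.691), without overlap. Atp6ap2, also called the prorenin receptor, overlapped at -0.06 ± 0.11 (adjusted p = 0.917).

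Further probe sets of the same subunit did not always share a sign. Over the 15 genes with several tested probe sets, 7 had probe sets of opposite sign at P49 (Atp6ap2, Atp6v0a2, Atp6v0b, Atp6v1b2, Atp6v1c1, Atp6v1e1 and Mcoln1), and no further V-ATPase probe set was called. In Atp6v0b, probe set 1416769_s_at was higher in null by 0.09 ± 0.17 and 1425448_x_at differed by -0.38 ± 0.13 (adjusted p = 0.938 and 0.23), each without overlap of the groups.

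Counting all 28 genes, the P49 groups did not overlap for 10 with null higher and for 3 with null lower, beside 11.2% and 12% of all genes. For the V-ATPase subunits the counts were 5 and 2 of 17, but 2 and 4 on the values as deposited and 1 and 6 at a common median, where 6.51% of all genes were separated upward and 20.6% downward. For the 11 genes outside the V-ATPase they were 5 and 1, and 4 and 1 at a common median. The separation of the subunits therefore had no direction that held across scalings.

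At P21 none of the 28 genes was called, where 0.0511% of all genes were called higher and 0.0128% lower. At an unadjusted p under 0.05 there were 2 members, both V1 subunits, beside 10.1% of all genes. With 1 probe set per gene, these were also the 2 members whose groups did not overlap. Both had null lower, beside 5.6% of all genes lower and 6.18% higher. Lgmn read 13.13, 12.88 and 13.37 on the wild-type P21 arrays and 13.13, 13.18 and 13.15 on the null P21 arrays, and these overlapped (0.03 ± 0.14, adjusted p = 0.952). Tpp1 differed by 0.06 ± 0.09 (adjusted p = 0.822), although its second probe set gave 0.29 ± 0.12 without overlap (adjusted p = 0.497). Lamp1 and Lamp2 differed by -0.02 ± 0.08 and 0.05 ± 0.15 (adjusted p = 0.924 and 0.917).

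The 2 V1 subunits were Atp6v1b2 and Atp6v1d. Atp6v1b2 read 15.68, 15.73 and 15.55 on the wild-type P21 arrays and 15.45, 15.18 and 15.53 on the null P21 arrays, a difference of -0.27 ± 0.10 (adjusted p = 0.432). Atp6v1d read 14.54, 14.48 and 14.57 in wild type and 14.33, 14.13 and 14.46 in null, a difference of -0.23 ± 0.09 (adjusted p = 0.484). In both, the groups did not overlap and null replicate 2 was the lowest of all 12 arrays. For the V-ATPase as a whole this array was the lowest of the 12 for 10 of the 17 subunits, for example Atp6v0b at 14.54 against 15.14 to 15.41 on the other arrays. Without it the differences were -0.16 and -0.14, and the median over the 17 moved from -0.03 to -0.003. With all arrays and 1 probe set per gene, the 95% interval lay within 0.5 log2 units of 0 for each of the 17 subunits. This did not hold for every further probe set. At P21, 1424513_at of Atp6v0a2 differed by -0.66 ± 0.19 without overlap and 1449711_at of Atp6v1e1 by 1.18 ± 0.52 with overlap. Neither was called (limma adjusted p = 0.351 and 0.499 over the tested probe sets). The probe sets that stand for these genes gave 0.07 ± 0.13 and 0.03 ± 0.10. 1449870_a_at of Atp6v0a2 gave 0.31 ± 0.23. In Atp6v1d, 1416951_a_at gave -0.22 ± 0.10 and 1438993_a_at 0.08 ± 0.18.

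**Figure D4:**
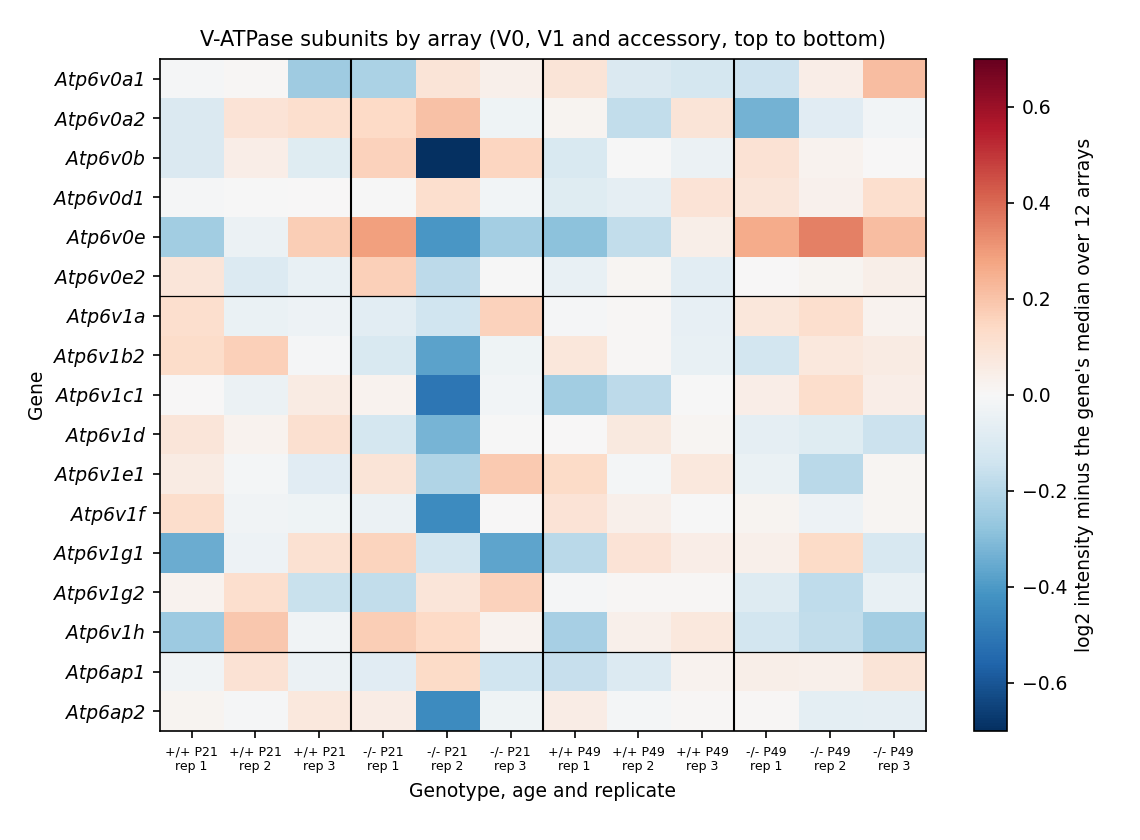
The 17 tested V-ATPase subunits (y axis; V0, V1 and accessory from top to bottom) on each of 12 arrays (x axis, genotype, age and replicate). Colour gives the log2 intensity minus that gene's median over the arrays. Null P21 replicate 2 is the lowest array for 10 subunits. Deviations run from -0.33 to 0.35 on the null P49 arrays and from -0.285 to 0.14 on the wild-type P49 arrays.

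The change of the genotype difference between P21 and P49 (the interaction) was not called for any member, where 0.345% of all genes were called higher and 0.204% lower. At an unadjusted p under 0.05 there were 4 members (Lgmn, Tpp1, Atp6v1c1 and Cln3), beside 8.44% of all genes. Lgmn came closest, with 0.95 ± 0.20 (limma adjusted p = 0.0639); leaving out wild-type P21 replicate 2 gave 1.07 (adjusted p = 0.0469) and leaving out replicate 2 of null P21 gave 0.96 (0.0497), both called. For Tpp1 the value was 0.32 ± 0.12 (adjusted p = 0.5), for Cln3 0.56 ± 0.25 (0.58) and for Atp6v1c1 0.39 ± 0.17 (0.574). The presence of a call for Lgmn and Tpp1 at P49 and its absence at P21 is thus not shown to be a difference between the ages. Over the 17 V-ATPase subunits 13 values were positive, and 9 without null P21 replicate 2. This comparison and those that follow share arrays with the genotype comparisons, so they do not support one another.

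From P21 to P49 in wild-type cerebellum, no member was called, where 0.166% of all genes were called higher and 0.536% lower. Lamp1 was the only one of the 28 with an unadjusted p under 0.05, beside 9.99% of all genes. It read 15.60, 15.56 and 15.50 at P21 and 15.41, 15.36 and 15.29 at P49, a difference of -0.20 ± 0.08 (adjusted p = 0.364) without overlap. With 1 probe set per gene, each of the 17 V-ATPase subunits had its 95% interval within 0.5 log2 units of 0.

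From P21 to P49 in null cerebellum, all 3 hydrolases were called higher, and no other member was called in either direction, where 2.78% of all genes were called higher and 3.45% lower. At an unadjusted p under 0.05 there were 7 members, beside 20.9% of all genes. Lgmn was higher by 0.80 ± 0.14 (adjusted p = 0.00542), or 1.74-fold, and was called in each of 24 alternatives. Tpp1 read 14.17, 14.22 and 14.13 on the null P21 arrays, below the 14.41 to 14.67 of the null P49 arrays, and was higher by 0.38 ± 0.09 (adjusted p = 0.0223). The call was lost in 6 of 24 alternatives, among them the omission of null P49 replicate 2 (adjusted p = 0.101) or 3 (0.113). Without the 3 P21 arrays of doubtful sex, which leaves null P21 with replicate 1 alone, the differences of the 28 members ran from -0.35 to 0.82.

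Ppt1 read 13.89, 13.58 and 13.86 on the null P21 arrays and 14.14, 14.10 and 14.39 on the null P49 arrays, without overlap, and was higher by 0.43 ± 0.12 (adjusted p = 0.0488). The call was lost in 18 of 24 alternatives, among them the omission of any single array other than null P21 replicate 1 or 3 (adjusted p from 0.0541 to 0.2). In wild type the same gene differed by 0.23 ± 0.12 (adjusted p = 0.569), and its interaction was 0.20 ± 0.17 (adjusted p = 0.839), so a difference between genotypes in its change with age is not shown. Lamp2 was separated upward at 0.35 ± 0.15 without a call (adjusted p = 0.203), and was called with its probe sets averaged (0.42, 0.0339). Laptm4b (-0.26 ± 0.09, adjusted p = 0.113) and Atp6v1h (-0.29 ± 0.12, 0.181) were lower at P49 without overlap but not called; both passed at a common median, which moved the median of all genes by -0.12. Atp6v0e differed by 0.40 ± 0.17 (adjusted p = 0.194), and its value moved with the P21 arrays used. It was called without null P21 replicate 1 (0.60, adjusted p = 0.0267) and was 0.25 without null P21 replicate 2 (0.38). Without the 3 arrays of doubtful sex, where null P21 keeps replicate 1 alone, the difference of Atp6v0e was -0.01.

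The other lysosomal gene lists give the setting of these values at P49. Among soluble hydrolases and their activators outside the set, 14 of 36 tested were called higher and 0 lower, with a median difference of 0.40, beside 1.52% and 1.14% of all genes. The 3 with the smallest p were the cathepsins Ctsd (2.05 ± 0.12, adjusted p = 1.87e-07) and Ctsz (1.82 ± 0.14, 3.41e-06) and Grn, the precursor of granulins (1.66 ± 0.13, 3.46e-06). Among other lysosomal membrane proteins, 5 of 21 were called higher. Cd68, a glycoprotein of the LAMP family in macrophages, rose by 3.76 ± 0.36 (adjusted p = 2.73e-05), the tetraspanin Cd9 by 0.96 ± 0.12 (0.000435) and Laptm5, a relative of Laptm4a in blood-derived cells, by 1.58 ± 0.22 (0.000751). The other calls, named after their values were seen, were Scarb2, the receptor that carries glucocerebrosidase to lysosomes, and Slc11a1, a metal transporter of phagocytes. The lists of lysosomal signalling and TFE factors (27 tested) and of TFEB targets in autophagy (15 tested) held no call in either direction, with 2 and 1 members at an unadjusted p under 0.05, beside 11.3% of all genes.

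Among 12 tested genes of V-ATPase assembly and regulation, Tcirg1 alone was called at P49. The count was 1 higher and 0 lower, beside 1.52% and 1.14% of all genes. Tcirg1 encodes a3, a further V0 a subunit best known from the acid-secreting membrane of osteoclasts, and its symbol places it outside the naming rule. It read 10.37, 10.14 and 10.32 on the wild-type P49 arrays and 11.21, 10.87 and 11.29 on the null P49 arrays, without overlap. The difference was 0.85 ± 0.21 (limma adjusted p = 0.043). At P21 none of these 5 lists held a call, where only 0.0511% of all genes were called higher and 0.0128% lower. Of the 36 other hydrolases and activators, 28 differences were positive and 8 negative at P21, with a median of 0.22. Their groups were separated upward for 11 and downward for 0, beside 6.18% and 5.6% of all genes. The medians of the other lists ran from -0.07 to 0.17.

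Markers of other cell types moved at P49 too. The summed linear intensity of 22 microglia and macrophage markers with a probe set, of which 17 were tested, was 38100 to 39287 on the wild-type P49 arrays and 205597 to 259086 on the null P49 arrays. At P21 it was 37328 to 46272 in wild type and 64274 to 72651 in null. Aif1, Itgam, Itgb2, Trem2 and Ptprc of this list lay below the filter. The list shares 2 genes with the hydrolase list and 2 with the list of other lysosomal membrane proteins. The sum of 12 Purkinje cell markers was 932341 to 959718 in wild type and 564995 to 741410 in null at P49, and that of 11 astrocyte and Bergmann glia markers was 364004 to 378836 and 466521 to 540351. A sum gives most weight to the brightest genes. By gene, 2 of these 11 (Gfap and Aqp4) were called higher and 0 lower, 8 differences were positive and 3 negative, and their median was 0.14. Of the 12 Purkinje cell markers 10 were called lower, and of the 17 tested microglia and macrophage markers 15 higher. These shares stand beside 1.52% of all genes called higher and 1.14% lower. The part of these cell types in the values of Lgmn, Tpp1, Lamp2 and Tcirg1 was not tested.

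The 4 isoforms below the filter had means over all arrays of 7.95 (Atp6v0a4), 6.71 (Atp6v1b1), 6.69 (Atp6v1c2) and 9.24 (Atp6v1e2), under the filter value of 9.93. Their values varied widely, as in Atp6v0a4, which read 6.49, 9.20 and 6.87 on the wild-type P49 arrays. Tested without a filter, none of the 4 was called in any of the 5 comparisons.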

How the data were processed

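The authors deposited 1 linear intensity per probe set and array. Neither the summarisation algorithm nor any background correction is given in the sources used here, and detection calls were not used. From the values, the 2% trimmed mean was 5002 for all arrays. One protocol text gives P21 for every animal; the time point labels were used. Genes were named through the platform annotation, updated by Entrez identifier with RefSeq (GRCm38.p6, 20351 matched, 29 not).

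Intensities were transformed as log2(value + 16), which understates changes of dim genes, and quantile normalized. The probe set with the highest mean stood for a gene, and genes reaching the 40th percentile of all probe-set means (intensity 959) were tested: 7835 of 12393. A second fit used all 13576 probe sets above it. Group means were compared in limma 3.58.1 (R 4.3.3) over 12 arrays with a mean-variance trend; p-values are two-sided and Benjamini-Hochberg adjusted over each fit. The fit was tested on simulated data. P-values rest on the spread between animals, pooled over the 4 groups of 3, so those at P49 also carry the spread at P21. Atp6v0b, for example, had an SD of 0.05 in each P49 group and of 0.50 in null P21.

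The member genes and lists were chosen with earlier results of these data known, including the choice of 3 arrays left out in 1 alternative. Any member could be named; of the other lists, up to 3 called genes with the smallest p at P49 are given with values, and Npc1 as the targeted gene. The number of arrays limits the precision. At most 33 of 22690 values were identical between a pair of arrays.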

Additional observations from a re-analysis of the deposited data

How the results depend on the processing

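Results were recomputed under 24 alternatives (23 for Cln3 and for the Lamp2 probe set), and no called value changed sign. Among values not called, Atp6v0e for age in null went from 0.40 to -0.01 without the 3 P21 arrays of doubtful sex. That alternative keeps only 1 null P21 array. At P49 the count of called members was 1 instead of 2 on the values as deposited, at a common 75th percentile, at a common median and without the mean-variance trend. Over all genes the main fit called 119 higher and 89 lower at P49. These settings, in the order named, called 127 and 82, 115 and 83, 96 and 107, and 113 and 73. The member count was 4 with probe sets averaged (3 higher, 1 lower), where 110 of 7340 genes were called higher and 83 lower. It was also 4 in the fit of only the P49 arrays, where 233 of 7835 genes were called higher and 167 lower. With a single array left out it was 1 to 2, and 65 to 190 genes were called higher and 35 to 131 lower. The lower call with averaging was Atp6v1g1. The interaction count was 0 to 1 with a single array left out, where 14 to 42 genes were called higher and 3 to 29 lower. For P49 against P21 in null, the count was 1 instead of 3 at a common 75th percentile and with only the groups compared. Over all genes these settings called 219 higher and 277 lower, and 68 and 58, beside 218 and 270 in the main fit. With a single array left out the member count was 1 to 4, and 78 to 292 genes were called higher and 93 to 355 lower. The counts at P21 and for age in wild type were 0 under each alternative that kept at least 2 arrays per group. Over all genes these alternatives called at most 14 higher and 13 lower at P21, and at most 50 and 76 for age in wild type. The causes were not tested.

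With a replicate block the member count at P49 was 1, and over all genes 113 were called higher and 76 lower. Same-numbered arrays came from different animals, and the correlations of their deviations ran from -0.175 to 0.189. Differently numbered arrays were not compared, so these values cannot decide whether the numbers pair anything. Because detection calls were not used, whether dim probe sets lie above background is not known.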

Other observations

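Of the 61 member probe sets, 9 lay below the filter. Among them, 1450926_at of Atp6v1g1 read 7.59, 9.05 and 8.82 on the wild-type P49 arrays and 5.96, 5.43 and 6.43 on the null P49 arrays, without overlap, and was not tested by itself. The brighter probe sets of this gene, 1423255_at and 1423256_a_at, differed at P49 by 0.26 ± 0.14 and 0.03 ± 0.15 (limma adjusted p = 0.594 and 0.979). Averaging the 3 gave Atp6v1g1 a difference of -0.75 ± 0.17 (adjusted p = 0.0314).

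The summed linear intensity of 7 choroid plexus markers varied within groups, from 8085 to 194531 in wild-type P21, 8549 to 186091 in null P21, 9719 to 36939 in wild-type P49 and 80119 to 219200 in null P49. Its part in the values of the member genes was not tested.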
